A study of Manihot esculenta with 9 samples.

Results

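Cycling DOF factor (CDF) genes encode plant transcription factors with a Dof zinc finger. In the deposited gene table of the series, 7 of 33033 genes carry the words cycling DOF factor in their description, and these 7 genes are described here. The description comes from the best Arabidopsis match, which is CDF2 for 3 genes and CDF3 for 4 genes, and the roles given below are those known in Arabidopsis. The measured tissue was leaf of cassava (Manihot esculenta), a tropical root crop, profiled by RNA sequencing. HOE8 and HOE1 are transgenic lines that overexpress MeH1.2, a linker histone, which binds the DNA between nucleosomes. They were set against wild type (WT), with 3 libraries in each of the 3 groups. All plants were untreated, 2 months old and grown from cuttings in sterile culture. The labels do not give the promoter of the transgene, the hour of harvest, or whether the libraries of a group came from separate plants. Each p-value below thus rests on library-to-library spread alone, and that spread may be technical.

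In Arabidopsis, CDF proteins repress the transcription of CONSTANS (CO) and FLOWERING LOCUS T (FT), genes that promote flowering in long days, and they recruit TOPLESS co-repressors to do so. CDF transcripts are most abundant in the morning. The morning clock factors CCA1 and LHY promote their transcription, and the pseudo-response regulators (PRR) repress it. Later in the day the F-box protein FKF1, bound to GIGANTEA (GI), marks CDF proteins for degradation.

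The shallowest library held 13272047 counted reads and the deepest 16378389. Levels between groups are given below as CPM, a gene's reads relative to its library's total, scaled by TMM, which corrects for library composition. In single libraries 3 reads equalled 0.183 to 0.226 CPM. The linker histone gene Manes.08G136300, in which transgene and native reads cannot be told apart, had 3157 to 3643 CPM in HOE8, 4538 to 4746 CPM in HOE1 and 140 to 154 CPM in WT. The label as transgenic or WT was thus borne out in every library. This check cannot tell whether the HOE8 and HOE1 labels are the right way round. HOE8 library 1 stood apart from the other libraries of its group. Its median chi-square per gene was 1.83 against library 2 and 2.03 against library 3, compared with 0.768 between libraries 2 and 3 and 0.455 for sampling noise alone. It was the lowest of the HOE8 libraries for 5 of the 7 CDF genes and the highest for 1. Leaving it out moved no log2 fold change of a CDF gene by more than 0.07 and changed no call.

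The CDF family as a whole was far more abundant in HOE8 leaves. Its 7 genes together had 514 ± 25 CPM in HOE8, 64.7 ± 1.1 CPM in HOE1 and 46.3 ± 2.7 CPM in WT (SD, n = 3 each), which is 11.1 times the WT sum in HOE8 and 1.4 times in HOE1. The make-up of the sum, which is not scaled by gene length, differed as well. In HOE8, the CDF2 match Manes.01G092100 made up 30.4% ± 0.26 of the summed CPM and the CDF3 match Manes.14G079000 made up 23.6% ± 0.57 (SD, n = 3). In HOE1, the summed level was spread over Manes.14G079000 (26.1% ± 2.3), Manes.09G136300 (24.7% ± 2), Manes.08G152100 (22% ± 0.3) and Manes.01G092100 (18.2% ± 1.6). In WT, Manes.08G152100 and Manes.09G136300 made up 43.5% ± 1.2 and 35.2% ± 0.86. The share of Manes.09G136300 was 2.39% ± 0.14 in HOE8. In bulk leaf RNA, more cells of an expressing type and more RNA per cell cannot be told apart.

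**Figure D1:**
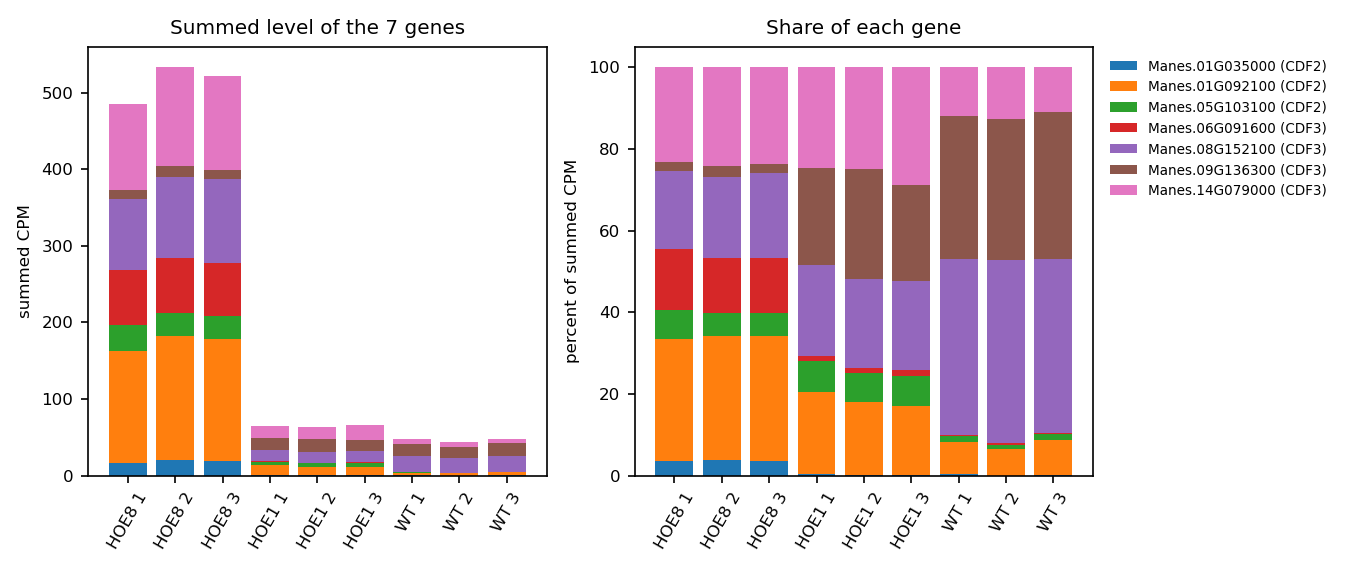
Left, stacked bars of TMM-scaled CPM of the 7 CDF genes in each library; right, each gene's percent of that sum. The 3 HOE8 libraries sum to 486 to 533 CPM, the HOE1 libraries to 63.8 to 66 and the WT libraries to 43.2 to 48.2, and Manes.09G136300 (brown) takes a small part of the HOE8 bars only.

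Counts were tested with edgeR's quasi-likelihood test over all 9 libraries, with p-values adjusted over 23434 genes and a threshold of 0.05. Against WT, 6 of the 7 CDF genes were higher in HOE8 and 1 was lower. Over all tested genes, 33.7% were called higher and 38.2% lower in that comparison. All 6 higher genes were called at 4-fold or more, which held for 5.94% of all tested genes. The median log2 fold change of the 7 genes was 5.45, beside -0.046 over all tested genes. In HOE1 against WT, 4 CDF genes were higher, 1 was lower and 2 were not called, with 31.7% of all tested genes called higher and 32.7% lower. Of those 4 genes, 2 were called at 4-fold or more, beside 1.68% of all tested genes. The median log2 fold change was 1.63, beside -0.005 over all tested genes. In HOE8 against HOE1, 6 CDF genes were higher and 1 was lower, beside 32.7% and 33.8% of all tested genes. Without overlap between libraries, 6 CDF genes lay higher and 1 lower in HOE8 against WT, beside 34.3% and 39.4% of all tested genes. In HOE1 against WT these were 4 higher and 1 lower, beside 36.3% and 37.0%, and in HOE8 against HOE1 6 and 1, beside 34.2% and 35.9%. The comparisons with WT share the WT libraries and are not independent of each other. All 7 genes passed the count filter. Manes.01G035000 passed it through HOE8 alone, and Manes.06G091600 and Manes.05G103100 passed it through the HOE8 and HOE1 libraries, with 0 and 1 WT libraries over the cutoff. For these 3 genes the filter favours a difference from WT, so the counts above are a description. With no low-count filter, over 29647 genes, each of the 3 kept its call in the 3 comparisons.

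**Figure D2:**
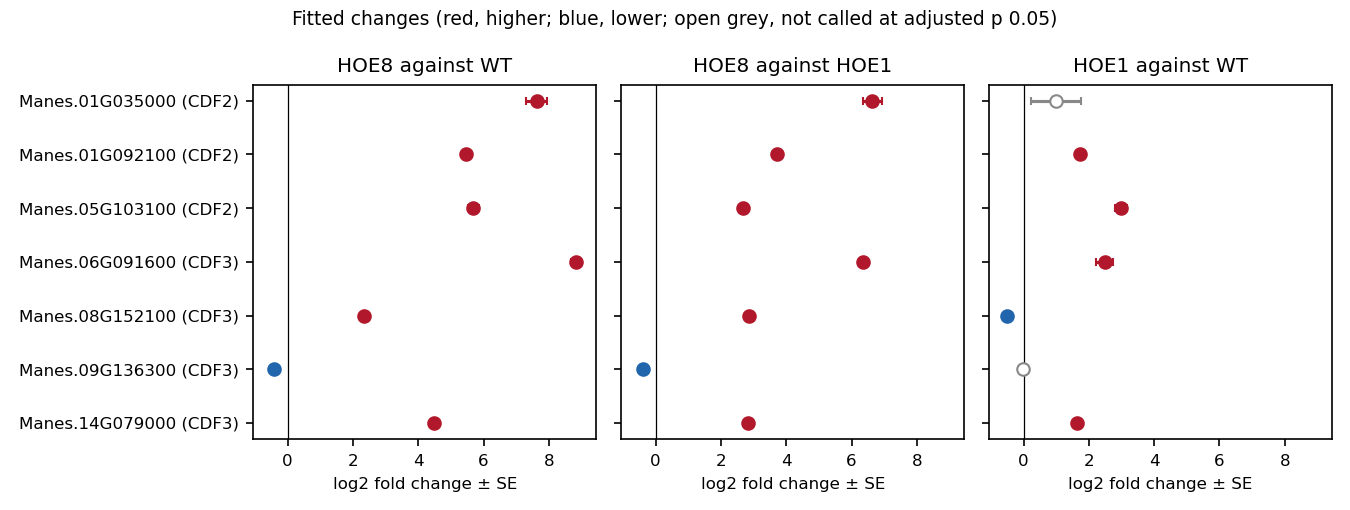
Fitted log2 fold changes (x axis, bars are the SE) of the 7 CDF genes in the 3 comparisons, with positive values meaning higher in the first-named line. In HOE8 against WT the values run from -0.41 to 8.83 and in HOE1 against WT from -0.50 to 2.99.

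Coordinates are those of the deposited table, whose genome build is not stated in the labels or the file. Among the CDF3 matches, Manes.06G091600 (chromosome 6, 20471494 to 20473978) had the largest fitted change of the family in HOE8. It measured 71.8, 72.2 and 70.1 CPM in the HOE8 libraries, 0.847, 0.787 and 0.97 CPM in the HOE1 libraries, and 0.0686, 0.194 and 0.176 CPM in the WT libraries. These were 950, 931 and 955 reads in HOE8, 12, 12 and 15 in HOE1, and 1, 3 and 3 in WT. The 3 groups did not overlap, and the gene was close to the detection limit in WT. Over pooled reads, HOE8 was 480-fold above WT (95% exact counting interval 233 to 1194) and HOE1 was 5.85-fold above WT (interval 2.58 to 15.5). These intervals cover counting error only. The interval of HOE8 against WT overlaps that of Manes.01G035000 (84.6 to 801), so which gene changed most in HOE8 is not settled. For Manes.06G091600, the fitted log2 fold changes were 8.83 ± 0.14 (SE) in HOE8 against WT (edgeR adjusted p = 2.8e-12) and 2.48 ± 0.27 in HOE1 against WT (adjusted p = 1.3e-05). With no low-count filter they were 8.82 (adjusted p = 9.7e-13) and 2.49 (adjusted p = 1.3e-05). The SE is derived from the F statistic and understates the error at so few WT reads. The counting intervals are wider and are the better guide.

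Manes.14G079000 (chromosome 14, 6391871 to 6395063) was the other CDF3 match that was higher in both lines. It had 112, 129 and 123 CPM in HOE8, 16, 15.9 and 19 CPM in HOE1, and 5.62, 5.5 and 5.28 CPM in WT. The groups were ordered HOE8, HOE1, WT with no overlap. The log2 fold change was 4.47 ± 0.09 in HOE8 against WT (adjusted p = 1.3e-11) and 1.63 ± 0.09 in HOE1 against WT (adjusted p = 9.5e-08). Of its bases, 114 overlap Manes.14G079100, an undescribed gene that had 6 reads in HOE8, 4 in HOE1 and 2 in WT in all.

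Manes.08G152100 (chromosome 8, 31666297 to 31669777), the most abundant CDF gene in WT, moved in opposite directions in the lines. It had 92.8, 106 and 109 CPM in HOE8, 14.4, 13.9 and 14.4 CPM in HOE1, and 20.5, 19.4 and 20.5 CPM in WT. Every HOE8 library lay above the WT range and every HOE1 library below it. The log2 fold change was 2.35 ± 0.07 in HOE8 against WT (adjusted p = 1.9e-10) and -0.50 ± 0.07 in HOE1 against WT (adjusted p = 0.00014). The difference between the lines, tested as HOE8 against HOE1, was 2.85 ± 0.07 (adjusted p = 9.6e-11).

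Among the 7 CDF genes, only Manes.09G136300 (chromosome 9, 25655247 to 25659513) was lower in HOE8 in the comparison with WT. It had 11.6, 13.5 and 11.7 CPM in HOE8, 15.3, 17.2 and 15.5 CPM in HOE1, and 16.6, 14.9 and 17.4 CPM in WT. HOE8 lay below both other groups without overlap, while HOE1 and WT overlapped. The log2 fold change was -0.41 ± 0.10 in HOE8 against WT (adjusted p = 0.0033), -0.38 ± 0.10 in HOE8 against HOE1 (adjusted p = 0.0061) and -0.03 ± 0.10 in HOE1 against WT (adjusted p = 0.8). This fall was small beside the increases of the other members.

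Among the CDF2 matches, Manes.01G092100 (chromosome 1, 21647142 to 21650438) had the highest level in HOE8. It measured 146, 162 and 160 CPM in HOE8, 12.9, 11.3 and 11.1 CPM in HOE1, and 3.64, 2.85 and 4.17 CPM in WT. No libraries of different groups overlapped. The log2 fold change was 5.45 ± 0.12 in HOE8 against WT (adjusted p = 1.4e-11) and 1.72 ± 0.12 in HOE1 against WT (adjusted p = 4.1e-07).

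Manes.05G103100 (chromosome 5, 8820639 to 8823883) had 34.2, 29.9 and 29.1 CPM in HOE8, 4.87, 4.66 and 4.85 CPM in HOE1, and 0.754, 0.388 and 0.646 CPM in WT. The WT values rest on 11, 6 and 11 reads, so the SEs of the comparisons with WT understate the error. It had the largest fitted change of the family in HOE1, with a log2 fold change of 2.99 ± 0.19 against WT (adjusted p = 1.8e-07), and 5.69 ± 0.16 in HOE8 against WT (adjusted p = 1.2e-10). Here the step between the lines, 2.69 ± 0.12 in HOE8 against HOE1 (adjusted p = 6.6e-09), was of the same order as the step between HOE1 and WT.

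Manes.01G035000 (chromosome 1, 5382401 to 5384320) was nearly silent outside HOE8. It had 221, 260 and 254 reads in the HOE8 libraries, 4, 2 and 2 reads in the HOE1 libraries, and 3, 0 and 1 reads in the WT libraries. In CPM these were 16.7, 20.2 and 18.6 in HOE8, 0.282, 0.131 and 0.129 in HOE1, and 0.206, 0 and 0.0587 in WT, so that HOE1 and WT overlapped near the detection limit. Over pooled reads, HOE8 was 218-fold above WT (95% exact counting interval 84.6 to 801) and 104-fold above HOE1 (interval 52.4 to 241). The ratio of HOE1 to WT was 2.1, with an interval of 0.562 to 9.52, so a difference was not detectable at this depth (adjusted p = 0.27). Leaving out single libraries, the fitted log2 fold change of HOE1 against WT ran between 0.47, without WT library 2, and 2.25, without WT library 1 (adjusted p = 0.64 and 0.067). The fitted log2 fold change in HOE8 against WT was 7.63 ± 0.32 (adjusted p = 2.8e-09) and 7.62 with no low-count filter (adjusted p = 1.3e-09). It was 8.88 without WT library 1, which held 3 of the 4 WT reads. At so few WT reads the SE understates the error, and the counting interval is the better guide.

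**Figure D3:**
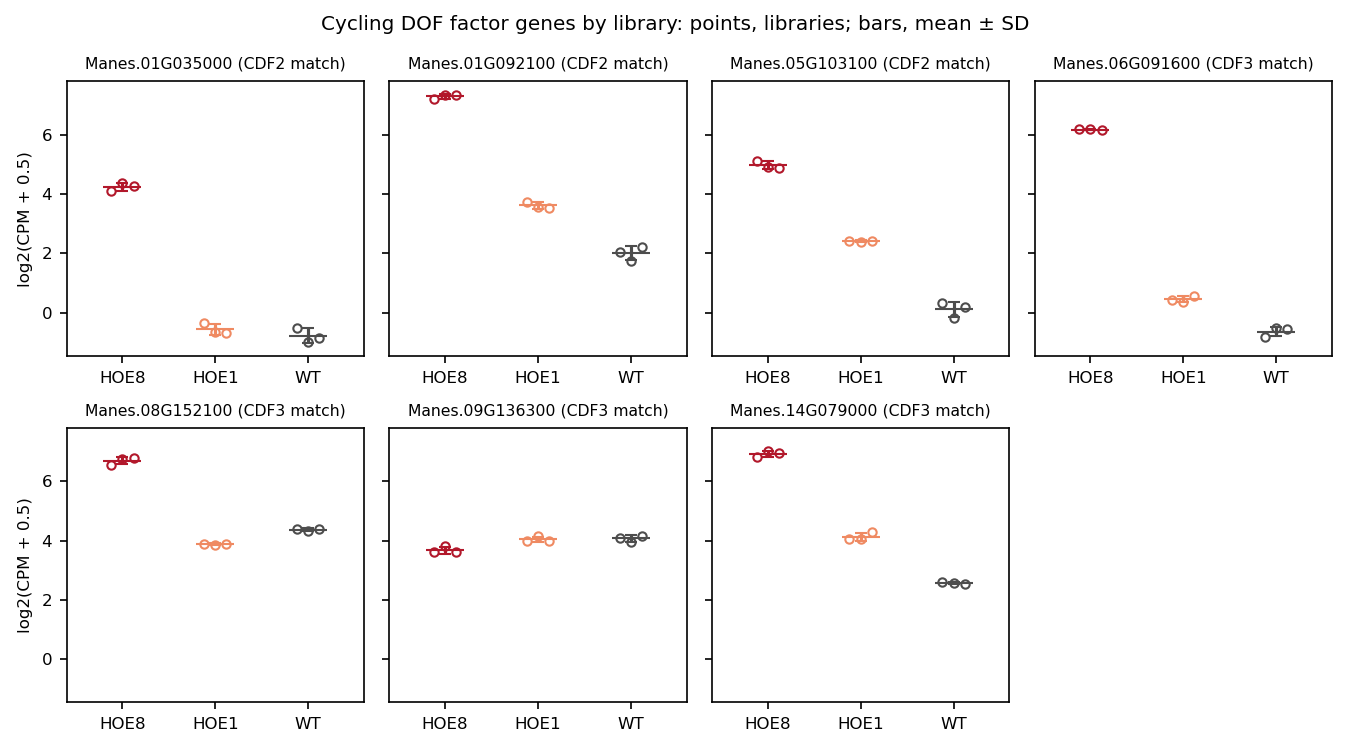
Each panel shows a CDF gene as log2(CPM + 0.5) (y axis) by group (x axis); circles are libraries and bars the mean ± SD of 3 libraries. HOE8 lies highest in every panel except that of Manes.09G136300, and HOE1 lies below WT for Manes.08G152100.

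Levels of different genes can be compared per gene length, as the deposited FPKM, which scales reads by gene length and library total. In HOE8, the order of mean FPKM was Manes.01G092100 (76.1 ± 4.1), Manes.14G079000 (60.4 ± 4.2), Manes.08G152100 (43.9 ± 3.8), Manes.06G091600 (32.4 ± 0.51), Manes.01G035000 (11 ± 1), Manes.05G103100 (6.45 ± 0.57) and Manes.09G136300 (2.19 ± 0.19; SD, n = 3), and no neighbours in this order overlapped. In HOE1, Manes.14G079000 was first with 8.53 ± 0.9 FPKM, followed by Manes.08G152100 (6.16 ± 0.13) and Manes.01G092100 (5.8 ± 0.48), whose libraries overlapped. In WT, Manes.08G152100 was first with 9.22 ± 0.31 FPKM, ahead of Manes.09G136300 (3.12 ± 0.25) and Manes.14G079000 (2.91 ± 0.1), which overlapped. The 3 lowest genes in WT had mean FPKM of 0.0564 to 0.133 and overlapped in neighbouring order. The lengths behind the FPKM were derived from count, FPKM and library total. Those of Manes.05G103100 (4684 bases) and Manes.09G136300 (5438 bases) exceed the genes' spans of 3245 and 4267 bases. The FPKM of these genes is divided by those lengths, so their places in the orders above depend on them. A length above the span was found for 3.24% of genes with reads.

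The 7 genes fall into groups by chromosomal surroundings, which the choice of genes did not use. Among the 20 genes on either side of each member, Manes.06G091600 and Manes.14G079000 shared 15 Arabidopsis matches, of 33 distinct matches around each. Manes.08G152100 and Manes.09G136300 shared 11, of 31 and 33. Manes.05G103100 shared 9 matches with Manes.01G035000 and 6 with Manes.01G092100, and the chromosome 1 genes shared 4 with each other. All other pairs shared 3 or fewer. Close copies may also have shared reads in counting, and the extent of this is not given in the sources used here.

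Within each library, the reads of copies in matching surroundings were set against each other as a log2 ratio, with 0.5 added to each count. The ratio of Manes.08G152100 to Manes.09G136300 was 3.06 ± 0.13 in HOE8, -0.16 ± 0.12 in HOE1 and 0.31 ± 0.08 in WT (SD, n = 3). These copies were close in reads in HOE1 and WT and far apart in HOE8. The ratio of Manes.06G091600 to Manes.14G079000 was -0.77 ± 0.11 in HOE8, -4.24 ± 0.05 in HOE1 and -5.03 ± 0.65 in WT, so the copy that was almost absent in WT came near its partner in HOE8. The WT value rests on few reads of Manes.06G091600. The ratio of Manes.01G035000 to Manes.05G103100 was -0.75 ± 0.25 in HOE8, -4.57 ± 0.54 in HOE1 and -2.79 ± 1 in WT. In HOE1 and WT it rests on few reads of Manes.01G035000, so the added 0.5 weighs on it. For Manes.01G092100 to Manes.05G103100 it was 2.33 ± 0.20 in HOE8, 1.29 ± 0.10 in HOE1 and 2.54 ± 0.29 in WT. Of 12 two-sided exact permutation tests on these ratios, over 4 gene pairs and 3 comparisons, 11 gave p = 0.1, the smallest that 3 libraries against 3 allow (adjusted p = 0.11). The exception was the last pair in HOE8 against WT, which overlapped (exact p = 0.4, adjusted p = 0.4).

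Clock genes and genes of CDF degradation were examined next, from lists of Arabidopsis matches. All changes in this and the next paragraph are in transcript level. Counts of list genes stand beside 33.7% of all tested genes called higher and 38.2% lower in HOE8 against WT, and 31.7% and 32.7% in HOE1 against WT. Some list genes passed the count filter only through the groups where they were high, such as an ELF4 match with 0 reads in HOE8. For these genes the filter favours a difference, so the list counts here and below are a description. No cassava gene matched CCA1. Of 10 cassava genes matching other morning clock genes (LHY, REVEILLE and LNK genes), 9 were higher and 0 lower in HOE8 against WT. In HOE1 against WT, 9 were higher and 1 lower. The median log2 fold changes were 1.81 in HOE8 and 0.48 in HOE1. Manes.09G079800, matching RVE8, a REVEILLE factor that activates clock genes, measured 188 ± 4.6 CPM in HOE8, 5.83 ± 0.97 CPM in HOE1 and 2.25 ± 0.39 CPM in WT. The LHY match Manes.05G015600 had log2 fold changes of 6.47 ± 0.13 in HOE8 against WT (adjusted p = 9.8e-12) and 0.37 ± 0.11 in HOE1 against WT (adjusted p = 0.012). Of 10 matches to PRR repressors, 3 were higher and 6 lower in HOE8 against WT, while 8 were higher and 0 lower in HOE1 against WT (medians -1.32 and 0.69). The HOE8 count of higher genes is near the share over all genes. Matches to the same PRR gene could differ in HOE8, where the PRR5 matches went in opposite directions. The PRR9 match Manes.01G239500 was higher in both lines, by 1.57 ± 0.08 in HOE8 (adjusted p = 1.2e-08) and 0.79 ± 0.08 in HOE1 (adjusted p = 6e-06) on the log2 scale. The PRR7 match Manes.08G001600 had 41.6 ± 6 CPM in HOE8, 125 ± 1.1 CPM in HOE1 and 74.6 ± 1.1 CPM in WT, so that the lines lay on opposite sides of WT. The TOC1 match Manes.06G089800 had 121 ± 7.3 CPM in HOE8, 127 ± 1.8 CPM in HOE1 and 91.4 ± 3.2 CPM in WT. Of 6 genes matching the evening complex, a repressor of clock genes at night, 0 were higher and 5 lower in HOE8 against WT, and 2 were higher and 1 lower in HOE1 against WT, with the HOE1 count of higher genes near the share over all genes. Both genes matching FKF1 and GI, which together mark CDF proteins for degradation, were lower in HOE8 against WT. FKF1 match Manes.15G134900 had 2.28 ± 0.67 CPM in HOE8, 239 ± 8.7 CPM in HOE1 and 107 ± 5.9 CPM in WT. Its log2 fold change was -5.55 ± 0.14 in HOE8 against WT (adjusted p = 5.2e-11) and 1.16 ± 0.10 in HOE1 against WT (adjusted p = 2.8e-06). GI match Manes.18G095000 had 1.05 ± 0.3 CPM in HOE8, 466 ± 5.2 CPM in HOE1 and 480 ± 6.9 CPM in WT and was called lower in HOE8 against both other groups. ZTL match Manes.06G022700, a relative of FKF1 that acts on clock proteins, had log2 fold changes of 0.48 ± 0.05 in HOE8 against WT (adjusted p = 4.4e-06) and -0.14 ± 0.05 in HOE1 against WT (adjusted p = 0.024).

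Of 5 tested matches to CO, its relatives and SOC1, 4 were higher and 0 lower in HOE8 against WT, and 2 were higher and 1 lower in HOE1 against WT. The CO match Manes.01G024100 had 8.52 ± 0.85 CPM in HOE8, 1.82 ± 0.22 in HOE1 and 1.63 ± 0.39 in WT, with a log2 fold change of 2.39 ± 0.18 in HOE8 (adjusted p = 3.5e-07) and 0.17 ± 0.21 in HOE1 (adjusted p = 0.5). The COL2 match Manes.02G062700, a CONSTANS-like gene, had 423 ± 24 CPM in HOE8, 16.5 ± 0.45 in HOE1 and 2.31 ± 0.49 in WT. The pair of FT matches was too low to be tested. Manes.13G000800 had 13 reads in HOE8 and 0 in HOE1 and WT, and Manes.12G001600 had 0 reads in every library. Among the partners, of 10 TOPLESS co-repressor genes, 1 was higher and 8 lower in HOE8 against WT, and 4 were higher and 1 lower in HOE1 against WT (medians -0.64 and 0.22), where the HOE1 count of higher genes is near the share over all genes. Of 7 tested matches to the FBH factors, which activate CO, 2 were higher and 4 lower in HOE8 and 5 higher and 2 lower in HOE1, where the HOE8 count of higher genes is near the share over all genes. The hour of harvest is not in the labels, and many clock transcripts and those of the CDF genes cycle over the day in Arabidopsis. Time of harvest and genotype cannot be told apart here.

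**Figure D4:**
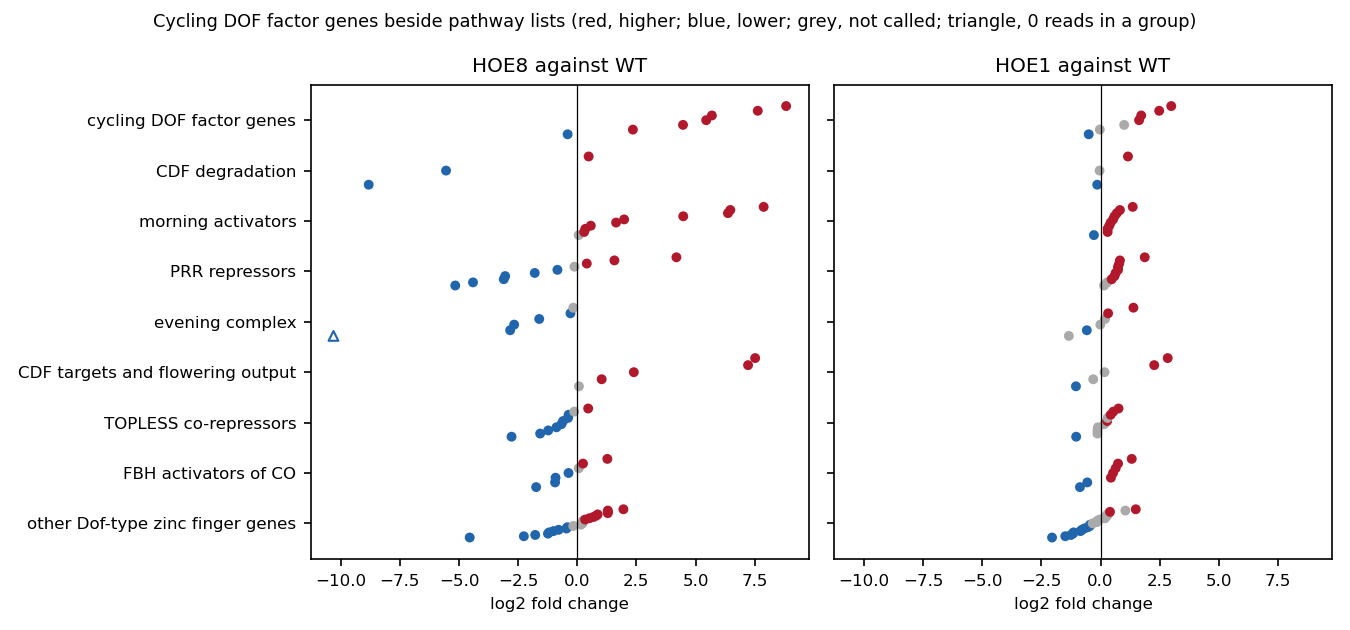
Log2 fold changes (x axis) of the CDF genes and of each pathway list (rows), a point per tested gene, in HOE8 and HOE1 against the same WT libraries. In HOE8, 6 CDF genes lie right of 0 with most morning clock genes (labelled morning activators), and the evening complex lies left. The triangle is a gene with 0 reads in HOE8, whose fitted value depends on the prior count.

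Outside the 7 CDF genes, 28 genes are described as Dof zinc finger genes and 23 of them were tested. Of these, 9 were higher and 9 lower in HOE8 against WT, with a median log2 fold change of 0.22. These counts are near the shares over all tested genes, 33.7% and 38.2%. In HOE1 against WT, 2 were higher and 11 lower (median -0.33), beside 31.7% and 32.7% of all tested genes. The most abundant over the 9 libraries were Manes.17G047300, with 26.2 ± 1.8 CPM in HOE8, 16 ± 1.2 in HOE1 and 35.9 ± 0.74 in WT, Manes.16G029800, with 19.9 ± 0.68 CPM in HOE8, 9.65 ± 1.4 in HOE1 and 40 ± 4.5 in WT, and Manes.02G005000. The last had 35.5 ± 20 CPM in HOE8, 19.1 ± 9.4 in HOE1 and 9.16 ± 0.45 in WT, a wide spread in the lines. A match to CDF4, a cycling DOF factor by name, and a match to the related COG1 fell outside the description and thus outside the 7 genes. The CDF4 match Manes.16G039600 had 0.983 ± 0.17 CPM in HOE8, 1.29 ± 0.059 in HOE1 and 2.33 ± 0.44 in WT, and was lower in both lines (log2 fold change -1.24 ± 0.23, adjusted p = 0.00049 in HOE8, and -0.85 ± 0.21, adjusted p = 0.0045 in HOE1). The match to COG1, a CDF-related Dof factor of light responses, is Manes.17G055700. It was lower in HOE8 (-1.78 ± 0.15, adjusted p = 8.7e-07) and had 0.29 ± 0.12 in HOE1 (adjusted p = 0.061). The CDF4 and COG1 matches were named after their values were seen.

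The genes most like Manes.06G091600 and Manes.14G079000 were found by Pearson's r of log2(CPM + 0.5) over the 9 libraries, among 21953 genes with a mean of at least 1 CPM. Because the libraries form 3 tight groups, r reflects mainly the order and spacing of the group means and is given as a description. For each of the CDF genes compared, 241 genes had r over 0.99. The genes named below are thus picked from many that are nearly as alike. Closest to Manes.06G091600 were Manes.15G100400, described as solanesyl diphosphate synthase 2 (r = 0.9994), which makes the side chain of plastid quinones, Manes.11G155200, a magnesium transporter (r = 0.9993), and Manes.15G081200, a B-box zinc finger gene (r = 0.9992). Their levels differ: Manes.15G100400 had 316 ± 0.59 CPM in HOE8, 67.4 ± 0.93 in HOE1 and 52 ± 0.86 in WT, a far smaller span than that of the CDF gene. Closest to Manes.14G079000 were the glycosyltransferase gene Manes.02G001000 (r = 0.9993), with 530 ± 36 CPM in HOE8, 137 ± 3.2 in HOE1 and 63.8 ± 2.1 in WT, the undescribed gene Manes.01G099100 (r = 0.9990) and Manes.06G028200, CONSTANS-like 5 (r = 0.9989).

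Summed markers of cell types differed between the groups, some in the order of the CDF sum (mesophyll, guard cell and shoot meristem) and others not (phloem and xylem). A sum follows its most abundant genes, and each list held genes that went the other way. Counts of marker genes against WT stand beside 33.7% of all tested genes called higher and 38.2% lower in HOE8, and 31.7% and 32.7% in HOE1. Here too some genes passed the count filter only through the groups where they were high, such as a STM match with 13 reads in WT. The part of the markers in the CDF differences was not tested. The leaf label was borne out by 16 genes matching 8 of 10 mesophyll markers, which summed to 26364 to 29822 CPM in HOE8, 9918 to 10366 CPM in HOE1 and 3613 to 3864 CPM in WT. Of the 15 tested, 13 were higher and 1 lower in HOE8 against WT, and 12 higher and 2 lower in HOE1 against WT. The RCA match Manes.10G027600 alone had a mean of 14761 CPM in HOE8. In Arabidopsis, CDF proteins act on flowering genes in phloem companion cells. The 18 genes matching 8 of 13 phloem markers summed to 185 to 211 CPM in HOE8, 300 to 315 CPM in HOE1 and 367 to 381 CPM in WT, with a pair of SWEET12 matches at 0 reads in all groups and 1 SEOR1 match with 1 read in HOE8 and 0 in HOE1 and WT. Of the 12 tested, 6 were higher and 2 lower in HOE8 against WT, and 3 higher and 4 lower in HOE1 against WT. The HOE1 counts are near the shares over all tested genes. The SUC2 match Manes.18G099400, a companion cell sucrose transporter, carried the lower sum, with 52.8 ± 1.9 CPM in HOE8, 169 ± 3.4 CPM in HOE1 and 250 ± 8.2 CPM in WT. The 37 genes matching 13 of 14 xylem and secondary-wall markers summed to 96.4 to 105 CPM in HOE8, 40.4 to 42.7 CPM in HOE1 and 64.7 to 67.3 CPM in WT, with the VND6 matches at 0 reads throughout. Of the 19 tested, 10 were higher and 3 lower in HOE8 against WT, and 1 higher and 13 lower in HOE1 against WT. The 6 genes matching 4 of 5 guard cell markers summed to 112 to 116 CPM in HOE8, 93.4 to 97.7 in HOE1 and 76.5 to 82 in WT. Of these 6, 3 were higher and 1 lower in HOE8 against WT, and 3 higher and 2 lower in HOE1 against WT. The HOE1 count of lower genes is near the share over all genes. The KAT1 match Manes.15G120900 had 32.8 ± 3 CPM in HOE8, 7.03 ± 0.46 in HOE1 and 16.6 ± 0.96 in WT, unlike the order of the sum. The 9 genes matching all 5 shoot meristem markers summed to 62.2 to 65.5 CPM in HOE8, 30.2 to 32.2 in HOE1 and 22.2 to 22.5 in WT, with the CLV3 match at 0 reads throughout and the WUS matches at 0 reads in HOE8. This sum rests on CLV1, KNAT1 and STM matches and is no measure of meristem cells in the leaf. Of the 6 tested, 5 were higher and 1, the CLV1 match Manes.11G162200, was lower in each line against WT.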

How the data were processed

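Leaf RNA of 9 cassava libraries was analysed from the deposited table of the series, which holds per gene and library a raw read count and an FPKM value made by the authors. Per the submitters' processing notes, HISAT2 2.0.4 and StringTie 1.3.0 were used. Sources used here do not give the build, the counting settings or the use of strand. A length per gene was derived from count, FPKM and library total in the library with most reads of that gene. With this length, each deposited FPKM equalled count over length and library total within 1% for every value above 0. In the library used for the length this agreement is fixed in advance. None of the 33033 identifiers matched the RefSeq gene table.

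Counts were tested with edgeR 4.0.16 (R 4.3.3): filterByExpr at a minimum count of 10 kept 23434 genes, TMM scaling, 1 quasi-likelihood model of group over 9 libraries, two-sided, Benjamini-Hochberg over all genes tested. The SE was derived from the F statistic, as log2 fold change over its square root. It understates the error where a group has few reads. Alternatives included DESeq2 1.42.0, other scalings and filters, a replicate block and leaving out each library. No pair of libraries was a duplicate.

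Named genes were all 7 CDF genes, the 3 most abundant of each list at most, and the 3 most alike genes of 2 members. Outside this rule, the FT, CDF4 and COG1 matches were named after their values were seen. Members and lists were chosen with earlier results of these data known, and the copies compared were chosen after their surroundings had been counted.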

Additional observations from a re-analysis of the deposited data

Results flagged for a closer look

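The CDF3 match Manes.08G152100 differed in direction between the lines. It was higher in HOE8 against WT and lower in HOE1 against WT, both past the threshold, and the difference between these effects was 2.85 on the log2 scale (edgeR adjusted p = 9.6e-11; every HOE8 library above and every HOE1 library below the WT libraries). Its log2 fold change ran from 2.31 to 2.42 in HOE8 and from -0.53 to -0.48 in HOE1 over the alternatives tried.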

How the results depend on the processing

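The counts of CDF genes called higher and lower in the 3 comparisons were the same under all 16 alternatives, and no count of all called genes moved by over 1.5 times (13510 to 16264 in HOE1 against WT, 14635 to 17574 in HOE8 against WT, and 13672 to 16054 in HOE8 against HOE1). Leaving out each library in turn gave 13927 to 16264, 16101 to 17294 and 14498 to 15785. Replicate numbers did not pair the libraries, with correlations of deviations from the group means of -0.04 to 0.04 for the same number and -0.05 to 0.04 for other numbers. With a replicate block, 14843, 16624 and 15298 genes were called in HOE1 against WT, HOE8 against WT and HOE8 against HOE1, and the CDF counts were 4 higher and 1 lower, 6 and 1, and 6 and 1. The log2 fold change of Manes.09G136300 in HOE1 against WT, which was not called, ranged from -0.093 to 0.021 over the fits that leave out 1 library, and was above 0 without HOE1 replicate 1 (0.002) and without WT replicate 3 (0.021). The cause was not tested. In the fit of HOE1 and WT alone, Manes.01G035000 did not pass the count filter and gave no value. Depth limits the CDF genes that WT and HOE1 barely expressed: Manes.01G035000 and Manes.06G091600 had 4 and 7 reads over the WT libraries, so their fold changes are bounded only by the counting intervals given.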
